A study of Mus musculus with 3 samples.

Results

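The cartilage of the embryonic mouse axial skeleton at embryonic day 13.5 (E13.5) was divided by its content of Fmod, which encodes the matrix proteoglycan fibromodulin, and the Fmod-high and Fmod-low spots were compared across all other genes. The spots were chosen in 3 steps. Of the 1365 spots deposited for the E13.5 section, the 1360 with at least 1000 unique molecular identifiers (UMIs, each counting 1 captured RNA molecule) were used, and the 204 spots with the highest share of Col2a1, the main cartilage collagen, were taken. The 54 of these with any UMI of T, a notochord gene, were left out. The remaining 150 spots were split at their median Fmod share into 75 Fmod-high and 75 Fmod-low spots, out of 3935 spots used in the whole series.

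The series holds 3 sections, 1 for each of the stages E11.5, E12.5 and E13.5, measured with 10x Visium, in which a tissue section lies on an array of spots that capture polyadenylated RNA. The labels describe all of them as mouse axial skeleton and give no strain, genotype, sex or treatment. A spot is 55 µm wide, spots lie 100 µm apart and sections were 10 µm thick, so a spot can hold parts of several cells. Because each stage is 1 section and the spots of a section share 1 library, no test between groups was made. Every value below is a count with a 95% exact interval that covers counting error only, so neither a difference between embryos nor one between sections can be judged.

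Vertebral bodies and the intervertebral discs between them both arise from sclerotome cells gathered around the notochord. Within this tissue the future vertebral bodies become cartilage that later enlarges, makes collagen X and is replaced by bone, while the future disc forms an outer annulus fibrosus, in which Pax1 and Pax9 stay active and fibrous matrix is laid down. Fibromodulin belongs to the small leucine-rich proteoglycans, which bind collagen fibrils and shape them, and it is abundant in the annulus as well as in other fibrous and cartilaginous tissues.

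The spots were chosen by the measured shares of Col2a1, Fmod and T, whose values are therefore a description only. Just inside the limit for cartilage the Col2a1 share was 126.02 UMIs per 10000, and just outside it was 125.61. The Fmod share just above the division was 13.73 per 10000 and just below it was 13.59. The median Fmod share was 23.8 per 10000 in the Fmod-high spots and 7.22 in the Fmod-low spots, so the low group was not free of Fmod. The median Col2a1 share also differed, at 271 and 212 per 10000. The Fmod-high spots were deeper, with a median of 7576 UMIs (1803 to 22840) against 4390 (1090 to 22445), and they held 643702 UMIs in all against 509120. Mitochondrial transcripts made up 0.709% and 1.04% of UMIs, and ribosomal protein transcripts 15.4% and 16.6%. The part that depth and these shares have in the results was not tested.

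The label under which these spots were set apart, cartilage of future discs against cartilage of future vertebrae, was checked with marker lists. Of 12 disc markers, 11 were higher in counts per 1000000 UMIs (CPM) in the Fmod-high spots, and Col1a1 was the exception. Of the 12, 5 had fewer than 50 UMIs over all the spots, and Nkx3-2 rested on 1 UMI. Among the 7 disc markers with at least 50 UMIs, 6 had a ratio above 1. Of all 4405 genes with that many UMIs, 51.9% did. Of these 7 markers 1, Pax1, reached 2-fold, as did 1.23% of the 4405 genes. Of 11 vertebral markers, 9 were lower in the Fmod-high spots. Of the 9 with at least 50 UMIs, 3 were at least 2-fold lower, Matn1, Snorc and Col10a1, as were 0.999% of the 4405 genes. All Col10a1 UMIs of the cartilage spots lay in 2 spots. Acan and Ucma went against the label. The spots are therefore named by the rule, as Fmod-high and Fmod-low, and not by an anatomical structure. Tissue images and spot positions were not used here.

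Most of the transcriptome was shared by the Fmod-high and Fmod-low spots. Of the 4405 genes with at least 50 UMIs, 54 were at least 2-fold higher in the Fmod-high spots, which is 1.23%, and 44 were at least 2-fold lower, which is 0.999%. The median log2 ratio over all these genes was 0.01. Of the 873 genes with at least 200 UMIs, for which counting error is smaller, 10 were at least 2-fold higher (1.15%) and 6 at least 2-fold lower (0.687%). The genes named below as higher in the Fmod-high spots included Pax1, several secreted proteins and chains of collagen VI, and those lower included Matn1, Snorc and the receptors Pth1r and Fgfr3.

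Pax1, the paired-box transcription factor required for ventral sclerotome and disc formation, was the disc regulator with the most counts. It ranged over the Fmod-high spots from 0 to 14.8 UMIs per 10000 with a median of 5.13, and over the Fmod-low spots from 0 to 14.3 with a median of 2.06. The ranges overlapped almost fully, and the quartiles overlapped as well. The lower quartile of the Fmod-high spots was 2.41, and the upper quartile of the Fmod-low spots was 5.35, above the Fmod-high median. Summed over spots, Pax1 (ENSMUSG00000037034) stood at 705 against 308 CPM, from 454 and 157 UMIs, a ratio of 2.29 (1.90 to 2.76). In the other 1156 spots of the section, which are neither cartilage by this rule nor T-positive cartilage, it stood at 107 CPM.

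The other sclerotome and disc regulators had few counts. Pax9, the close relative of Pax1 that acts with it in the sclerotome, had 32 UMIs in the Fmod-high and 9 in the Fmod-low spots, a ratio of 2.81 (1.31 to 6.70). Foxf2, a forkhead factor of ventral mesenchyme, had 18 and 3 UMIs, a ratio of 4.75 (1.39 to 25.2). Its relative Foxf1 had 13 and 5 UMIs, and the interval of its ratio, 0.688 to 7.37, included 1. These 3 genes were below the minimum of 50 UMIs and are not in the counts of genes. Scx, the basic helix-loop-helix factor of tendon and annulus progenitors, had a ratio of 1.29 (0.848 to 1.99), and Foxc2 one of 1.26 (0.761 to 2.12). At this depth neither could be told from no difference. Of the 13 disc and sclerotome regulators, 5 were measured with at least 50 UMIs, and their median log2 ratio was 0.36. Of these 5, 4 had ratios above 1, against 51.9% of all measured genes, and 1, Foxc1, was below, at a log2 ratio of −0.41. At least 2-fold higher was 1 of them, and none was at least 2-fold lower.

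**Figure D1:**
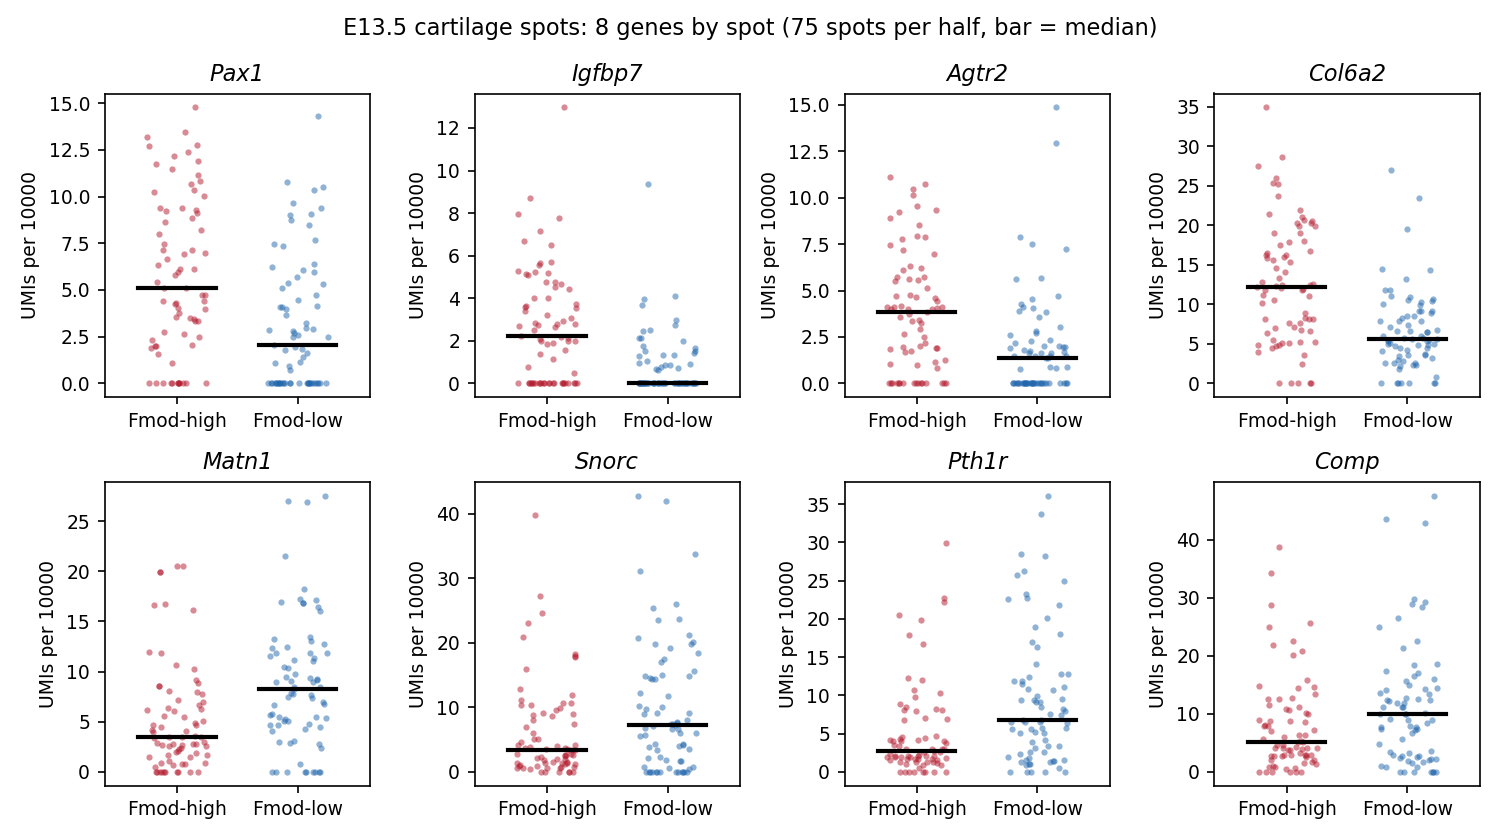
UMIs per 10000 in each E13.5 cartilage spot for 8 genes, with 75 Fmod-high spots in red and 75 Fmod-low spots in blue, each point 1 spot and each bar the group's median. The medians of Pax1, Igfbp7, Agtr2 and Col6a2 are higher in the Fmod-high spots and those of Matn1, Snorc, Pth1r and Comp lower, while the ranges overlap for all 8 genes.

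The 15 named genes on the Fmod-high side, those with the largest ratios among genes with at least 100 UMIs, included several secreted proteins. Smoc1, a secreted calcium-binding matrix protein that modulates BMP signalling, had 96 and 17 UMIs, a ratio of 4.47 (2.65 to 7.98). Igfbp7, an IGF-binding protein that is secreted, had a median of 2.22 per 10000 over the Fmod-high spots (0 to 13.0) and of 0 over the Fmod-low spots (0 to 9.38). It stood at 346 against 108 CPM, from 223 and 55 UMIs, a ratio of 3.21 (2.38 to 4.39). The secreted protein Pamr1 stood at 207 against 64.8 CPM (3.19, 2.16 to 4.82). For Smoc1 the median was 0 in both groups of spots, so its difference came from a minority of spots.

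Agtr2, the angiotensin II type 2 receptor, had a median of 3.85 per 10000 in the Fmod-high spots (0 to 11.1) and of 1.39 in the Fmod-low spots (0 to 14.9). The spot with the highest share of Agtr2 was thus a Fmod-low spot. The sums were 514 and 173 CPM, a ratio of 2.97 (2.35 to 3.81). With the top 20% of spots by Col2a1 the log2 ratio of Agtr2 moved from 1.57 to 0.92, that of Pamr1 from 1.66 to 0.94 and that of Smoc1 from 2.12 to 1.49. Agtr2 was not confined to cartilage in this section. It stood at 394 CPM in the other spots, above the level in the Fmod-low and below that in the Fmod-high cartilage. Pax1, Smoc1 and Igfbp7 were lower in those other spots than in the Fmod-high spots, at 107, 18.9 and 60.3 CPM.

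The remaining genes of the 15 had ratios between 2.10 and 2.81. Tcf4, which encodes a basic helix-loop-helix E protein and is not the Wnt effector of similar name, had a ratio of 2.81 (1.82 to 4.48). Ndufa4l2, a mitochondrial protein induced in low oxygen, had one of 2.55 (1.89 to 3.49), and its log2 ratio moved from 1.34 to 1.97 with spots of at least 5000 UMIs. Tgfbi, an adhesion protein induced by TGF-beta, stood at 732 against 336 CPM (2.18, 1.82 to 2.61). The BMP co-receptor Rgmb and the hedgehog co-receptor Gas1 had ratios of 2.15 (1.39 to 3.42) and 2.12 (1.57 to 2.90). Mn1, a transcriptional coregulator, had a ratio of 2.10 (1.35 to 3.34).

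Collagen VI, which forms beaded microfibrils around cells in cartilage, tendon and annulus, was higher in the Fmod-high spots in all 3 of its measured classical chains. Col6a2 had a median of 12.2 per 10000 over the Fmod-high spots (0 to 34.9) and of 5.62 over the Fmod-low spots (0 to 27.0), and summed to 1401 against 660 CPM, a ratio of 2.12 (1.87 to 2.41). Col6a1 had medians of 8.11 and 3.60 per 10000 and a ratio of 2.08 (1.79 to 2.42). Col6a3 had a ratio of 1.51 (1.33 to 1.72). Of the 23 measured genes of fibrous matrix, 15 had a ratio above 1, against 51.9% of all measured genes. Col6a1 and Col6a2 were at least 2-fold higher, as were 1.23% of all measured genes. None was 2-fold lower, and the median log2 ratio of the list was 0.33.

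Within that fibrous list the main fibril collagens did not share the size of the collagen VI difference. Col1a1 stood at 2528 against 2854 CPM, slightly lower in the Fmod-high spots (ratio 0.886, 0.825 to 0.951), and Col1a2 had a ratio of 1.05 (0.986 to 1.11). Col3a1, Col5a1 and Col5a2 had ratios of 1.28, 1.25 and 1.26. Sparc, a collagen-binding glycoprotein, had a ratio of 1.73 (1.63 to 1.84), and Fbln5, which takes part in elastic fibre assembly, one of 1.99 (1.43 to 2.82). Outside the list Col8a1, a short-chain collagen, had one of 2.22 (1.47 to 3.44), with a log2 ratio that moved from 1.14 to 0.31 with the top 10% of spots by Col2a1. Postn, Thbs2, Fbn1, Fbln2 and Lox all had ratios below 1, from 0.804 to 0.948, with intervals that included 1.

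Small leucine-rich proteoglycans other than Fmod divided between the groups of spots. Bgn, which encodes biglycan, had a median of 26.8 per 10000 in the Fmod-high and 13.0 in the Fmod-low spots, and stood at 2843 against 1463 CPM, a ratio of 1.94 (1.78 to 2.12). Ogn (osteoglycin) had a ratio of 1.74 (1.52 to 2.01), Chad (chondroadherin) one of 1.92 (1.5 to 2.47), and Podn (podocan) one of 2.09 (1.10 to 4.19) from 51 UMIs in all. In the other direction Epyc, the epiphycan of growth cartilage, stood at 80.8 against 173 CPM, which is 2.14-fold lower in the Fmod-high spots (1.5 to 3.08). Lum (lumican) had a ratio of 0.742 (0.617 to 0.893). Of the 10 measured family members, 5 had ratios above 1 and 5 below, against 51.9% of all measured genes above 1. At least 2-fold higher was 1 and at least 2-fold lower 1, against 1.23% and 0.999% of all measured genes. The median log2 ratio of the family was 0.01. That median was 0.68 with spots of at least 5000 UMIs, 0.63 with the top 20% of spots by Col2a1, and 0.45 and 0.46 for genes with at least 20 and 200 UMIs.

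The genes lower in the Fmod-high spots included matrix proteins and receptors of cartilage. Matn1, the cartilage matrix protein matrilin-1, had a median of 3.48 per 10000 over the Fmod-high spots (0 to 20.5) and of 8.27 over the Fmod-low spots (0 to 27.5). Matn1 (ENSMUSG00000040533) stood at 336 against 825 CPM, from 216 and 420 UMIs, 2.46-fold lower in the Fmod-high spots (2.08 to 2.91). Snorc, a transmembrane proteoglycan of chondrocytes, had medians of 3.39 and 7.20 per 10000 and was 2.02-fold lower (1.71 to 2.39). Pth1r, the receptor for parathyroid hormone-related protein that restrains chondrocyte maturation, had medians of 2.75 and 6.79 per 10000 and was 1.96-fold lower (1.63 to 2.36). Fgfr3, a receptor that limits chondrocyte proliferation, was 1.71-fold lower (1.33 to 2.20). Both groups of spots held all 4 genes above the other spots, where Matn1 stood at 35.4, Snorc at 47.5, Pth1r at 101 and Fgfr3 at 28.4 CPM.

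Related matrix genes were lower by less than 2-fold. Comp, the cartilage oligomeric matrix protein, stood at 584 against 959 CPM (1.64-fold lower, 1.43 to 1.88), Matn4 at 977 against 1406 CPM (1.44-fold lower, 1.29 to 1.6), and Matn3 was 1.52-fold lower (1.10 to 2.11). Cytl1, a secreted protein of chondrocytes, was 1.34-fold lower (1.17 to 1.54), and the link protein gene Hapln1 was 1.24-fold lower (1.08 to 1.43). Hapln1 was most abundant in the lowest bin of Fmod share, at 885 CPM when the spots were cut into 4 bins of 37 or 38.

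Genes of the cartilage collagens and aggrecan had ratios near 1 in these 150 spots. Col9a1, Col9a2 and Col9a3, the chains of collagen IX, had ratios of 1.03, 1.11 and 0.991, and Col11a1 and Col11a2 of collagen XI had ratios of 1.01 and 0.942. Acan, the large aggregating proteoglycan, had a ratio of 1.05 (0.957 to 1.15). Sox9, the transcription factor that drives these genes, stood at 244 against 283 CPM (ratio 0.862, 0.683 to 1.09). Ucma, a secreted Gla-rich protein of cartilage, went the other way from Matn1 and stood at 250 against 118 CPM (2.12, 1.57 to 2.90). Of the 23 measured cartilage matrix genes, 1, Ucma, was at least 2-fold higher, and 3, Matn1, Snorc and Epyc, were at least 2-fold lower. The shares over all measured genes were 1.23% and 0.999%. The median log2 ratio of the list was −0.09.

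That division within cartilage matrix depended on which spots counted as cartilage. When the top 20% of spots by Col2a1 were taken, the log2 ratio of Matn1 moved from −1.30 to −0.51, that of Snorc from −1.02 to −0.40, that of Epyc from −1.09 to −0.32, that of Pth1r from −0.97 to −0.38, and that of Fgfr3 from −0.77 to −0.17. With only spots of at least 5000 UMIs, the top 15% by Col2a1 was taken anew among them, which gave 65 Fmod-high and 66 Fmod-low spots. This setting therefore changed the choice of cartilage spots as well as their depth. The values for these 5 genes were then −0.51, −0.42, −0.52, −0.53 and −0.30. Matn4 changed sign to 0.16, Acan reached 0.70 and Ucma 2.22. Col9a1, Col9a2 and Col9a3 then reached 0.63, 0.68 and 0.51 and Col11a1 and Col11a2 0.38 and 0.57, and the top 20% gave these collagens 0.36 to 0.62. All of Matn1, Snorc, Epyc, Pth1r and Fgfr3 kept a ratio below 1 under both settings. With the Fmod division made separately among deeper and shallower spots, Pax1 was at 1.09, Igfbp7 at 1.82, Matn1 at −1.17 and Snorc at −0.79. How far the depth of the groups still differed under that setting was not measured.

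The other named genes on the Fmod-low side had no shared role. Peg10, an imprinted gene derived from a retrotransposon, was 2.34-fold lower in the Fmod-high spots (1.57 to 3.53). The precursor of a secreted peptide Ecrg4 and the protease inhibitor Serpine2 were each 2.18-fold lower. Penk, which encodes proenkephalin, stood at 329 against 599 CPM (1.82-fold lower, 1.52 to 2.18), while its medians over spots were 2.77 and 2.67 per 10000. Its difference therefore came from a tail of Fmod-low spots, of which the highest held 41.4 per 10000. Cd24a, Alyref, Tor1aip2, Susd5 and Ppil2 were between 1.71-fold and 1.75-fold lower. With each spot weighted alike the log2 ratio of Ecrg4 moved from −1.12 to −0.52 and that of Ppil2 from −0.77 to −0.10. Actn2, a sarcomere protein of muscle, was 1.90-fold lower (1.25 to 2.90) and moved with the muscle markers given below.

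Among genes of hypertrophic cartilage and bone, Col10a1 and most of Ihh sat in 2 Fmod-low spots. Col10a1, the collagen of hypertrophic chondrocytes, had 170 UMIs in the cartilage spots, with 143 in one spot and 27 in another, and 0 in the Fmod-high spots. Against an assumed floor of 3 UMIs summed over the Fmod-high spots this is 71.6-fold higher in the Fmod-low spots. The two-sided exact 95% interval allows a fold as low as 57.6, and neither value covers the spread between spots. The same spots held 22 and 7 of the 33 Fmod-low UMIs of Ihh, the hedgehog ligand of prehypertrophic cartilage, against 4 UMIs in all Fmod-high spots. They also held 888 and 1250 globin and other erythroid UMIs and 33 and 38 UMIs of liver genes. Without these 2 spots Ihh was 1.36-fold lower in the Fmod-high spots in place of 10.4-fold, Snorc 1.74-fold, Pth1r 1.88-fold and Matn1 2.36-fold, and Pax1 was 2.13-fold and Igfbp7 3.16-fold higher. The counts of genes past 2-fold were then 47 higher and 34 lower.

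Runx2 and Runx3, transcription factors of hypertrophic cartilage and bone, were less tied to those spots. Runx2 had 8 UMIs in the Fmod-high and 22 in the Fmod-low spots, 3.48-fold lower (1.49 to 9.03), and 3.05-fold lower without the 2 spots. Runx3 had 3 and 12 UMIs, 5.06-fold lower (1.36 to 27.9) and 4.07-fold lower without them. Sp7, the osteoblast factor osterix, had 3 and 10 UMIs. All 3 were under the minimum of 50 UMIs. Of the hypertrophic cartilage and bone list, 3 genes had at least 50 UMIs, and Col10a1 and Pth1r were the 2 lower ones. Mef2c, the other, was higher in the Fmod-high spots, at a log2 ratio of 0.60. It ranged from −0.31 to 1.30 over the alternative settings.

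**Figure D2:**
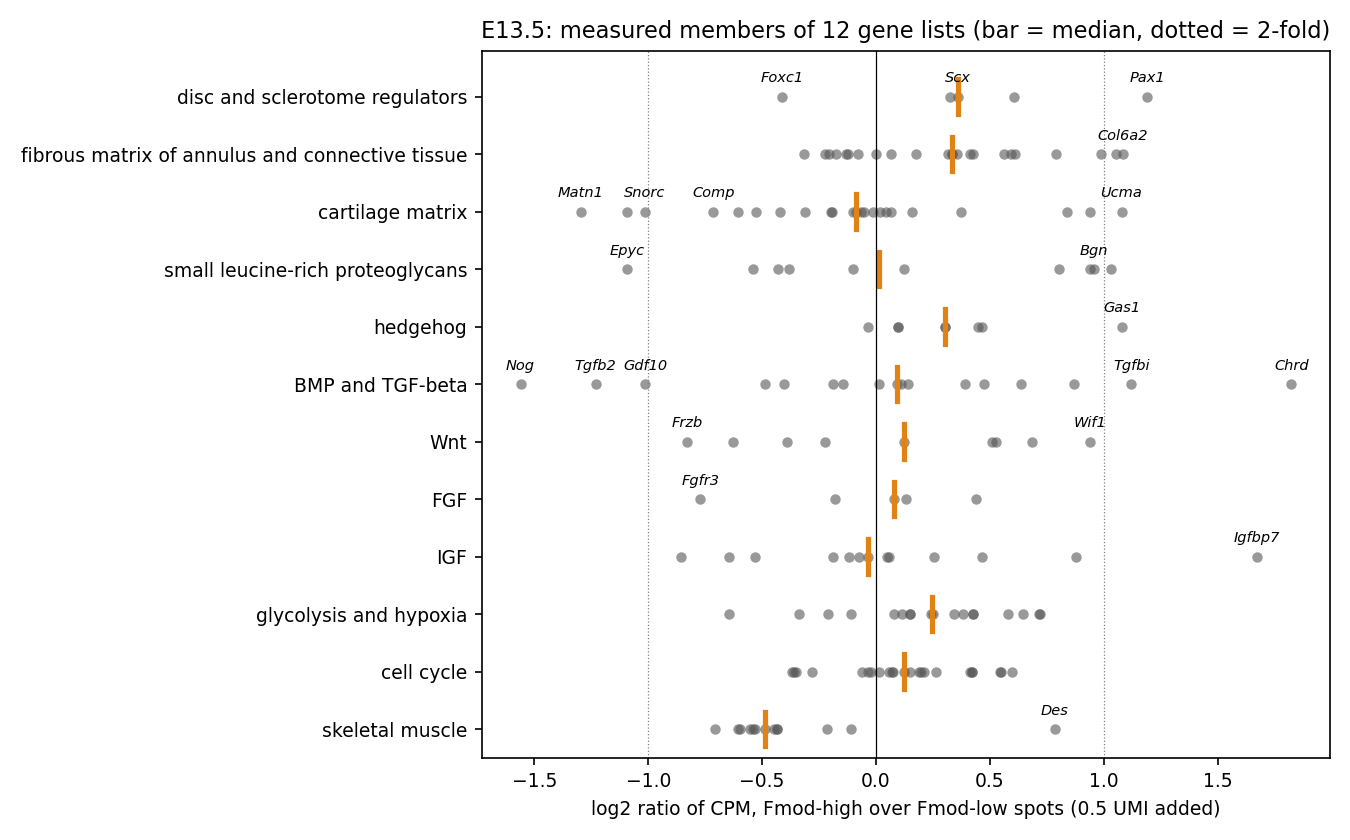
Log2 ratio of CPM of the Fmod-high over the Fmod-low spots at E13.5 for each measured member of 12 gene lists, each point 1 gene, orange bars the list medians and dotted lines 2-fold. Points of the disc, fibrous matrix and hedgehog lists lie mostly to the right of 0 and those of skeletal muscle to the left, and the cartilage matrix list reaches past 2-fold on both sides.

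Signalling genes differed gene by gene. In the hedgehog list, 7 of 8 measured genes had ratios above 1, against 51.9% of all genes, and only Gas1 reached 2-fold. Ptch1 and Gli1, which are switched on by hedgehog signalling, had ratios of 1.24 (0.838 to 1.85) and 0.977 (0.701 to 1.37). Of the 17 measured BMP and TGF-beta genes, 2 were at least 2-fold higher, Chrd and Tgfbi, and 3 at least 2-fold lower, Nog, Tgfb2 and Gdf10. Over all measured genes these shares were 1.23% and 0.999%. The list had a median log2 ratio of 0.09.

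The BMP antagonists chordin and noggin stood on opposite sides. Chrd had 42 UMIs in the Fmod-high and 9 in the Fmod-low spots, a ratio of 3.69 (1.77 to 8.62), whereas Nog had 19 and 45 UMIs and was 2.99-fold lower in the Fmod-high spots (1.72 to 5.42). The TGF-beta ligands were opposed as well. Tgfb3 had a ratio of 1.84 (1.33 to 2.56), and Tgfb2, from 24 and 45 UMIs, was 2.37-fold lower in the Fmod-high spots (1.41 to 4.07). Ltbp3, which holds latent TGF-beta in the matrix, had a ratio of 1.56 (1.31 to 1.86). The Id genes Id1 and Id3, which BMP signalling induces, had ratios of 1.01 and 1.08. Chrd is also in the list of notochord genes, which summed to 555 against 703 CPM. Of the 5 measured notochord genes, 2 had ratios above 1 and 3 below.

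Among Wnt genes the secreted antagonists also divided: Wif1 had a ratio of 1.93 (1.34 to 2.82) and Frzb was 1.78-fold lower in the Fmod-high spots (1.16 to 2.76). None of the 9 measured Wnt genes was past 2-fold, and their median log2 ratio was 0.12. In the FGF list Fgfr1 was higher, with a ratio of 1.36 (1.09 to 1.69), while Fgfr2 was at 1.06 (0.770 to 1.46) and Fgfr3 was lower as given above. In the IGF list, of 13 measured genes Igfbp7 alone was past 2-fold, Igfbp5 had a ratio of 1.38 (1.23 to 1.56) and the growth factor Igf2 one of 0.977 (0.909 to 1.05).

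Of 18 measured genes of glycolysis and of the response to low oxygen, 14 had ratios above 1, against 51.9% of all genes, none was past 2-fold, and the median log2 ratio was 0.25. Eno1 and Pkm, which act late in glycolysis, had ratios of 1.34 (1.16 to 1.56) and 1.30 (1.17 to 1.46), and the mitophagy receptor Bnip3 had one of 1.66 (1.07 to 2.61). Gapdh was at 0.927 (0.848 to 1.01), and the glucose transporter gene Slc2a1, the lowest of the list, at 0.637 (0.390 to 1.03). The 23 measured cell cycle genes had a median log2 ratio of 0.12 with none past 2-fold, and the proliferation marker Mki67 had a ratio of 1.04 (0.811 to 1.34). The 31 measured genes of collagen folding and secretion had a median of 0.06, and the collagen chaperone Serpinh1 a ratio of 0.997 (0.929 to 1.07).

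Markers of other tissues were read in the same spots. Skeletal muscle genes were lower in the Fmod-high spots in 12 of 13 measured genes, none by 2-fold, while 51.9% of all measured genes were higher. Their summed levels were 2607 against 3644 CPM, with a range over spots of 8.71 to 76.3 per 10000 against 7.65 to 119. The 5 measured erythroid genes were at least 2-fold lower in the Fmod-high spots, as were 0.999% of all measured genes. The erythroid sums were 2430 against 6586 CPM, and the second sum was 2560 CPM without the 2 Col10a1 spots. Spots ranged in erythroid genes from 3.17 to 82.5 per 10000 in the Fmod-high and from 2.28 to 1035 in the Fmod-low group. Liver genes summed to 45.1 against 187 CPM, with 50.6 CPM without those 2 spots. The sums of neuron genes were 292 and 293 CPM, and those of endothelial genes 207 and 283 CPM. Elastic vessel wall genes were higher in the Fmod-high spots, at 1395 against 982 CPM. Of their 4 measured genes, 3 had ratios above 1 and 1 below, with a median log2 ratio of 0.51. Macrophage genes summed to 410 against 283 CPM, with 1 measured gene above 1 and 1 below. Tenomodulin (Tnmd), a defining tendon gene, had 8 UMIs in the Fmod-high and 32 in the Fmod-low spots, and the tendon list summed to 427 against 566 CPM. The part of muscle, blood, vessel wall and macrophages in the results was not tested, apart from the values without the 2 spots. In bulk spots such as these, fewer cells of a type and less RNA per cell cannot be told apart.

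To describe the named genes along Fmod share, the spots were cut into 4 bins by Fmod share, from bin 1, the lowest, to bin 4. Pax1 stood at 199, 419, 621 and 773 CPM over the bins. Igfbp7 stood at 80.5, 137, 196 and 450 CPM, with its largest step between bins 3 and 4, and Pamr1 at 46.0, 79.9, 204 and 216 CPM, with its largest step between bins 2 and 3. Matn1 ran the other way, at 916, 708, 396 and 297 CPM.

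Of the 15 named genes on the Fmod-high side, 9 increased at every step, and of the 15 on the Fmod-low side 8 decreased at every step. The end bins were in the order of the groups for all 30 genes, an order that the choice of the genes largely fixes. The other 13 genes, Smoc1, Tcf4 and Peg10 among them, were out of order at 1 step or more. Snorc was not in order, at 977, 468, 539 and 263 CPM, and bin 1 holds the 2 Col10a1 spots. The median depth of the bins was 4250, 4770, 4332 and 9986 UMIs, so only bin 4 was deeper than the rest.

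**Figure D3:**
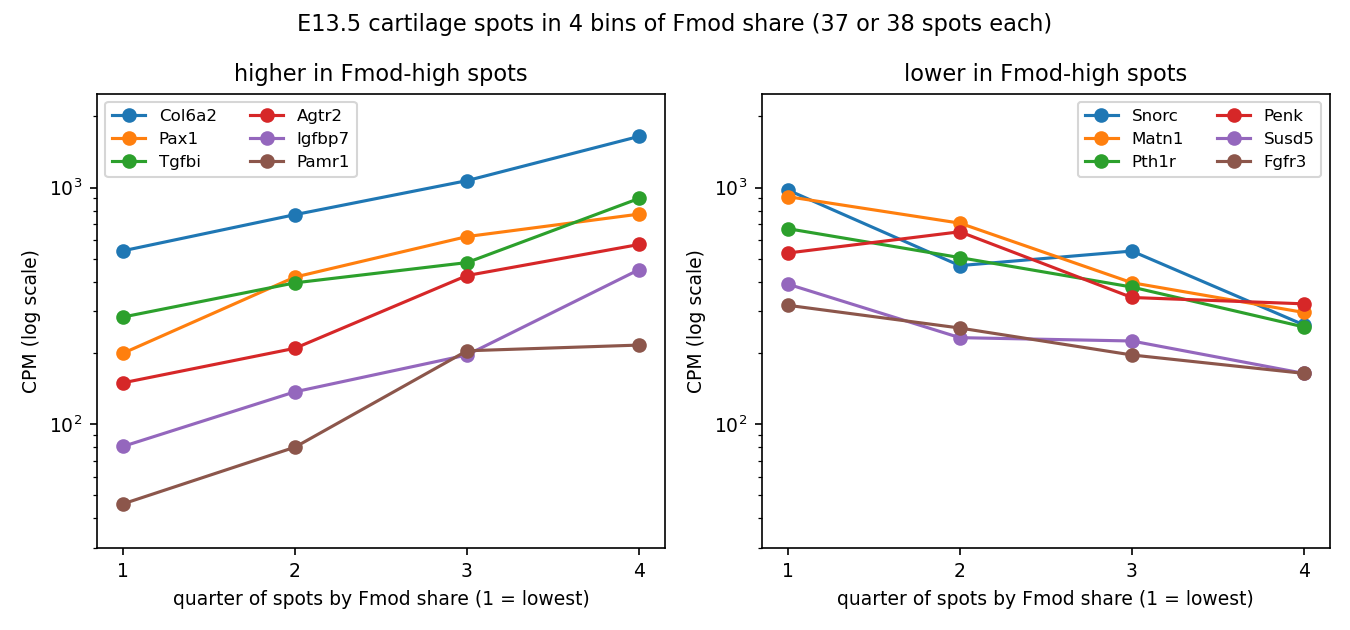
CPM on a log scale of 6 genes higher (left) and 6 genes lower (right) in the Fmod-high spots, over 4 bins of E13.5 cartilage spots from the lowest to the highest Fmod share, each point the sum over 37 or 38 spots. Pax1 runs from 199 to 773 CPM and Matn1 from 916 to 297 CPM.

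The same rule was applied to the E12.5 section, 1 section as well, to see how the division looked 1 stage earlier. It gave 101 cartilage spots, 50 Fmod-high and 51 Fmod-low, divided at 0.92 Fmod UMIs per 10000, a far lower share than at E13.5. The Fmod-high spots held 243 Fmod UMIs and the Fmod-low spots 31. Median depth was 19990 and 21562 UMIs, so here the Fmod-high spots were the shallower ones. At E12.5, 45 of 6920 genes were at least 2-fold higher in the Fmod-high spots (0.65%) and 38 at least 2-fold lower (0.549%). At E11.5 the median Fmod share of the cartilage spots was 0, and the division was not analysed.

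Pax1 differed at E12.5 much as at E13.5, at 952 against 383 CPM, a ratio of 2.49 (2.22 to 2.80) from 964 and 421 UMIs. At this depth the other disc regulators had enough counts to read. Foxf2 had a ratio of 2.91 (2.0 to 4.29), Foxf1 of 2.0 (1.40 to 2.88), Pax9 of 1.96 (1.49 to 2.60) and Scx of 1.91 (1.48 to 2.47). Foxc2 was lower in the Fmod-high spots, with a ratio of 0.748 (0.601 to 0.930). Of 9 measured disc and sclerotome regulators at E12.5, 5 had ratios above 1 and 4 below, where 53.7% of all genes were above 1. Pax1 and Foxf2 were the 2 at least 2-fold higher, as were 0.65% of all genes.

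On the Fmod-high side of the E13.5 comparison, most named genes that could be measured at E12.5 had the same direction there. Of the 15 named genes, 10 had at least 50 UMIs at E12.5, and 9 of them had ratios above 1, where 53.7% of all genes did. Among the named genes only Pax1, Smoc1, Pamr1 and Tcf4 were at least 2-fold higher at E12.5 as well. Smoc1 had a ratio of 2.60 (1.57 to 4.43), Pamr1 of 2.85 (1.57 to 5.43), Tcf4 of 2.21 (1.70 to 2.90) and Rgmb of 1.95 (1.52 to 2.52). Agtr2 was the exception, at 0.958 (0.627 to 1.46). Igfbp7 had only 5 UMIs, too few to read, over all the E12.5 cartilage spots.

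Of the 15 named genes on the Fmod-low side, 12 were measured at E12.5. Of these, 8 had ratios below 1 and 4 above, where 53.7% of all genes were above 1. Their median log2 ratio was −0.12. Matn1 had 40 and 37 UMIs and a ratio of 1.17 (0.732 to 1.89), Pth1r a ratio of 1.09 (0.858 to 1.39) and Epyc one of 1.15 (0.774 to 1.70). Fgfr3 was lower at both stages, with a ratio of 0.720 (0.563 to 0.917) at E12.5. Snorc had 9 UMIs in all there. Nog was lower at both stages, with a ratio of 0.525 (0.356 to 0.763) at E12.5. Whether a ratio differs between the stages was not tested.

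At E12.5 Chad was 3.15-fold higher in the Fmod-high spots (1.87 to 5.53), and the collagen VI genes Col6a1 and Col6a2 had ratios of 1.15 (0.765 to 1.74) and 1.35 (0.974 to 1.88). All 7 measured neuron genes were at least 2-fold lower in the Fmod-high spots at E12.5, as were 0.549% of all genes. The neuron sums were 258 against 752 CPM, where the E13.5 sums were 292 and 293 CPM. The part of neural tissue in the E12.5 values was not tested. Of the genes past 2-fold, 6 were shared on the higher side, Ezr, Nfatc1, Pamr1, Pax1, Smoc1 and Tcf4, which is 11.1% of the E13.5 and 13.3% of the E12.5 genes. On the lower side 3 were shared, Gdf10, Ntrk2 and Vcam1, which is 6.82% and 7.89%.

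**Figure D4:**
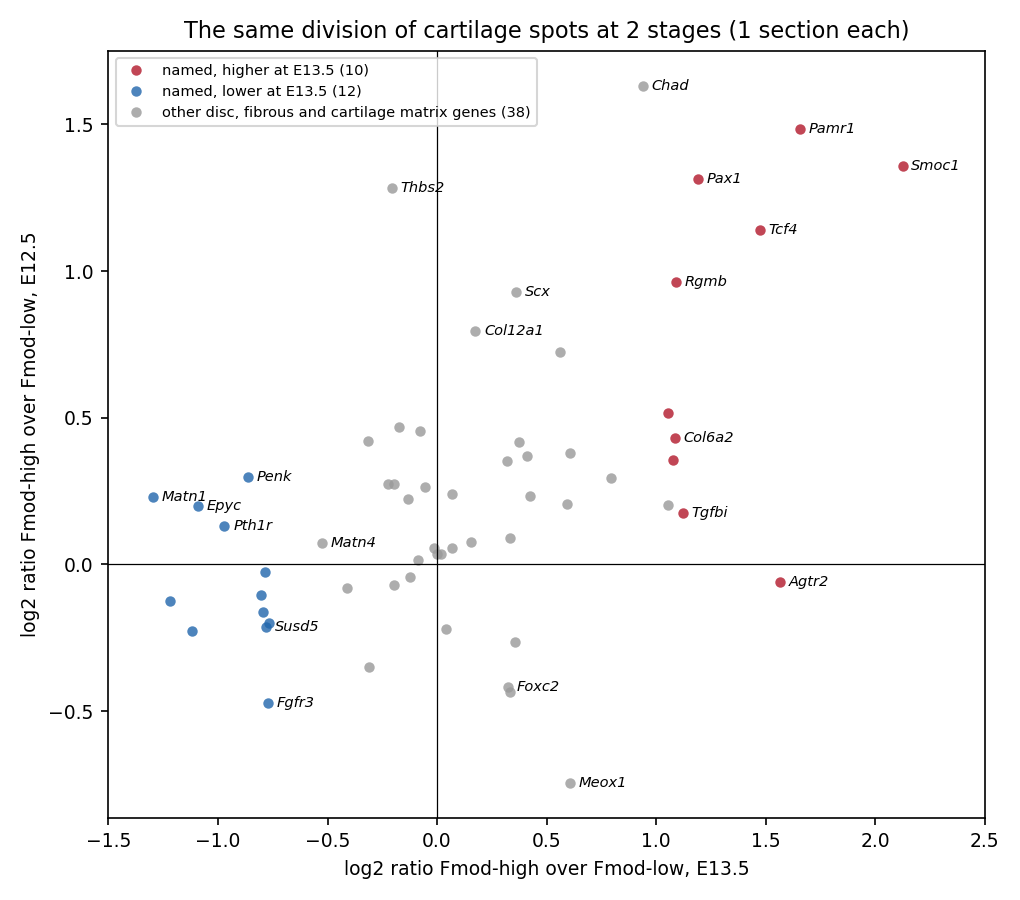
Log2 ratio of Fmod-high over Fmod-low cartilage spots at E13.5 (horizontal) and E12.5 (vertical) for genes with at least 50 UMIs at both stages: 10 named genes higher at E13.5 in red, 12 named genes lower in blue and 38 other genes of the disc, fibrous matrix and cartilage matrix lists in grey. Pax1, Smoc1, Pamr1, Tcf4 and Rgmb are high at both stages, and Matn1, Epyc, Pth1r and Penk are low at E13.5 and above 0 at E12.5.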

How the data were processed

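Visium libraries of 3 mouse sections were analysed, 1 per stage. The deposited matrices give, for every gene in every spot, the raw UMI count. Space Ranger 1.2.0 wrote them, per the file headers. The submitters' processing notes name the aligner STAR and the build mm10. Not given in the sources used here: the STAR version, the annotation release and how spots over tissue were selected. The stage of each section comes from its title.

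Spots with at least 1000 UMIs were kept. UMIs were summed over the Fmod-high and the Fmod-low spots and divided by each group's total (CPM); 1 UMI equals 1.55 and 1.96 CPM. Ratios carry exact conditional binomial 95% intervals, and log2 ratios have 0.5 UMI added to each sum. Genes with at least 50 UMIs over both groups were measured. With 1 section per stage there are no replicates, so no test, SD or p-value is given. Named genes were, per direction, the 15 largest ratios among genes with at least 100 UMIs and no spot with over 25% of the gene's UMIs, leaving out the 3 genes of the rule, globin, mitochondrial, ribosomal protein, sex-linked, unnamed and repeated symbols; genes of 32 lists (535 genes, 2 symbols unmatched) were added by role. A result for 1 of the named genes is not reported here, though the counts include it. The spots, the lists and the comparison were chosen with earlier results of these data known. Genes named outside the rule and lists, such as Ezr, Nfatc1, Ntrk2 and Vcam1, were chosen after their values were seen. The counting script was tested on simulated data. Alternatives varied the cartilage and depth limits, the Fmod division, scaling (TMM factors from edgeR 4.0.16 in R 4.3.3), minimum counts and added UMIs. For the limit of 5000 UMIs, the top 15% by Col2a1 and the Fmod division were taken anew among the spots that passed. Python 3.11.15, numpy 2.4.6, pandas 2.3.3, scipy 1.17.1 and matplotlib 3.10.9 were used. Array positions carry the same barcodes in each section, so 699 E11.5 and 691 E12.5 barcodes also occur at E13.5, and shared barcodes are not shared cells.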

Additional observations from a re-analysis of the deposited data

Results flagged for a closer look

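For 4 abundant genes the E13.5 and E12.5 sections gave opposite directions between Fmod-high and Fmod-low cartilage spots, each with a counting interval on its own side of no difference. Col1a1 had a log2 ratio of −0.18 at E13.5 and 0.47 at E12.5. Col3a1 had 0.35 and −0.26, and Igfbp5 0.47 and −0.47. The imprinted transcript H19 had −0.12 at E13.5 and 0.43 at E12.5. The difference between stages was not tested, since each stage is 1 section.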

How the results depend on the processing

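There were 17 alternatives, 16 of them planned and 1, leaving out the 2 Col10a1 spots, chosen after seeing the data. The 30 named genes were recomputed under 14 each, and 419 of 420 values kept their direction. The exception was Tor1aip2, at a log2 ratio of 0.0151 with spots of at least 5000 UMIs. Direction was largely fixed by picking genes for large ratios in these spots, and some settings only rescale the same sums. Of the values that kept their direction, 50 lay outside the gene's counting interval. The count of genes at least 2-fold higher, 54, was 82 with each spot weighted alike, 25 with 5 UMIs added to each sum, and 259, 10 and 2288 for genes with at least 20, 200 and 1 UMIs. The count lower, 44, was 70 with spots of at least 5000 UMIs, 16 and 69 with the top 10% and top 20% by Col2a1, and 220, 6 and 2125 at those 3 minimums. The median log2 ratio of the cartilage matrix list, −0.09, was 0.37 with spots of at least 5000 UMIs and 0.34 with the top 20% by Col2a1. The disc list's median ranged from −0.04 to 0.42 and the fibrous list's from 0.22 to 0.40. Hbb-bt reversed to 0.26 without spots rich in other tissues and to 0.23 without the Col10a1 spots, and Hbb-y to 0.28 without spots rich in other tissues. The spots rich in other tissues were picked partly by their share of erythroid genes, and the Col10a1 spots held many erythroid UMIs. These globin values are therefore in part set by which spots were dropped. The causes were not tested. No paired analysis was possible because each stage is 1 section. Depth limits the genes under 50 UMIs, Pax9, Foxf1, Foxf2, Ihh, Runx2, Runx3, Sp7 and Tnmd among them.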

Other observations

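The gene with the largest ratio past the minimum of 50 UMIs was Cdh4, a classical cadherin, with 52 UMIs in the Fmod-high and 7 in the Fmod-low spots at E13.5 (ratio 5.88, 2.66 to 15.3). Pdpn, a mucin-type membrane glycoprotein, had 68 and 16 UMIs, a ratio of 3.36. On the Fmod-low side Smpd3, a neutral sphingomyelinase needed for skeletal mineralization, had 11 and 45 UMIs, and Scube3, a secreted signal modulator, 22 and 46. These 4 genes were chosen after their values were seen.

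Hox genes, whose pattern marks position along the body axis, were looked at after seeing the data. At E13.5 only Hoxa7 and Hoxa10 of 39 Hox genes had at least 50 UMIs, with log2 ratios of −0.53 and −1.13, and all Hox genes summed to 536 against 587 CPM in the Fmod-high and Fmod-low spots. At E12.5, 18 were measured, with a median log2 ratio of −0.36.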
